A study of Mus musculus with 3 samples.

Results

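The 10 genes described here encode hormones of the stomach and proteins of the granules that store and release them. They are Chga, Chgb and Pcsk1n (granule proteins), Ghrl, Sst and Gast (peptide hormones), Hdc (the enzyme that makes histamine), Scgn and Cplx2 (proteins of calcium-triggered release) and Ptprn2 (a granule membrane protein). They were taken by name, with every probe set that the platform's gene table assigns to 1 of them alone, which gave 14 probe sets for 10 of the 18194 genes on the array. The choice was made with earlier results on these arrays known, so the counts below describe the genes and are not an independent test.

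The study profiled 3 epithelial lineages of the mouse stomach by laser-capture microdissection and hybridised 1 Affymetrix mouse array for each. The parietal array holds acid-secreting cells that bind the lectin DBA, taken singly from the pit zone. The pit array holds mucous cells that stained for E-cadherin but not with DBA, from the apex of the same gastric units. The zymogenic array holds cells of the base zone in the corpus, the main body of the stomach, which stained for E-cadherin, bound neither of the lectins GSII and DBA and came from different slides once basal parietal cells had been discarded. Slide and lineage therefore cannot be told apart for that array. Between 3000 and 5000 cells of a lineage were gathered over 4 to 5 mice, and their RNA was pooled to 20 ng before amplification. Genotype, strain, age and treatment of the mice are not stated in the labels, and the labels call the molecule nuclear RNA where the design text speaks of total RNA. Since each lineage has a single array, spread between replicates cannot be given, nothing was tested between lineages, and differences describe these 3 arrays.

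Endocrine cells lie scattered among the other cells of the gastric unit, many of them near its base. In the corpus the main types are enterochromaffin-like (ECL) cells, which release histamine and drive acid secretion, ghrelin cells and somatostatin-releasing D cells, while gastrin cells belong to the antrum. Their peptides are stored with chromogranins in dense-core granules and are released when calcium rises. Endocrine cells are epithelial and carry E-cadherin, so that stain does not set them apart from zymogenic cells. These genes bear on which cells the zymogenic collection held. Whether their transcripts came from captured endocrine cells or from zymogenic cells was not tested.

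Values are intensities on a linear scale, as the authors deposited them. The detection floor was an intensity of 23.3, set from 80 probe sets for odorant and pheromone receptors, and a fold against an array under the floor is a lower bound. Of the 10 genes, 8 were above the floor on the zymogenic array, where 12.6% of all genes were. Of the same 10, 1 was above it on the parietal array (15.4% of all genes) and 2 on the pit array (14.4% of all genes). A zymogenic value at least 4-fold over both other arrays was seen for 3 of 10 (Chga, Ghrl and Scgn), against 0.588% of all genes. At least 2-fold higher were 5 of 10, with Chgb and Sst added, against 1.57% of all genes. At least 2-fold lower there was 1 of 10, Ptprn2, against 2.52% of all genes. Of the 10, 0 were 2-fold over both others on the parietal array (1.7% of all genes; 0.264% at 4-fold) and 0 on the pit array (1.31% of all genes; 0.203% at 4-fold). The count past 4-fold on the zymogenic array was 5 when the 90th percentile of the receptors set the floor, and 0 when the 99th did. That last floor, 868, lies above every value of these genes. It was set by another array, as 0 of the 80 receptor probe sets were brighter than Chga on the zymogenic array.

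**Figure D1:**
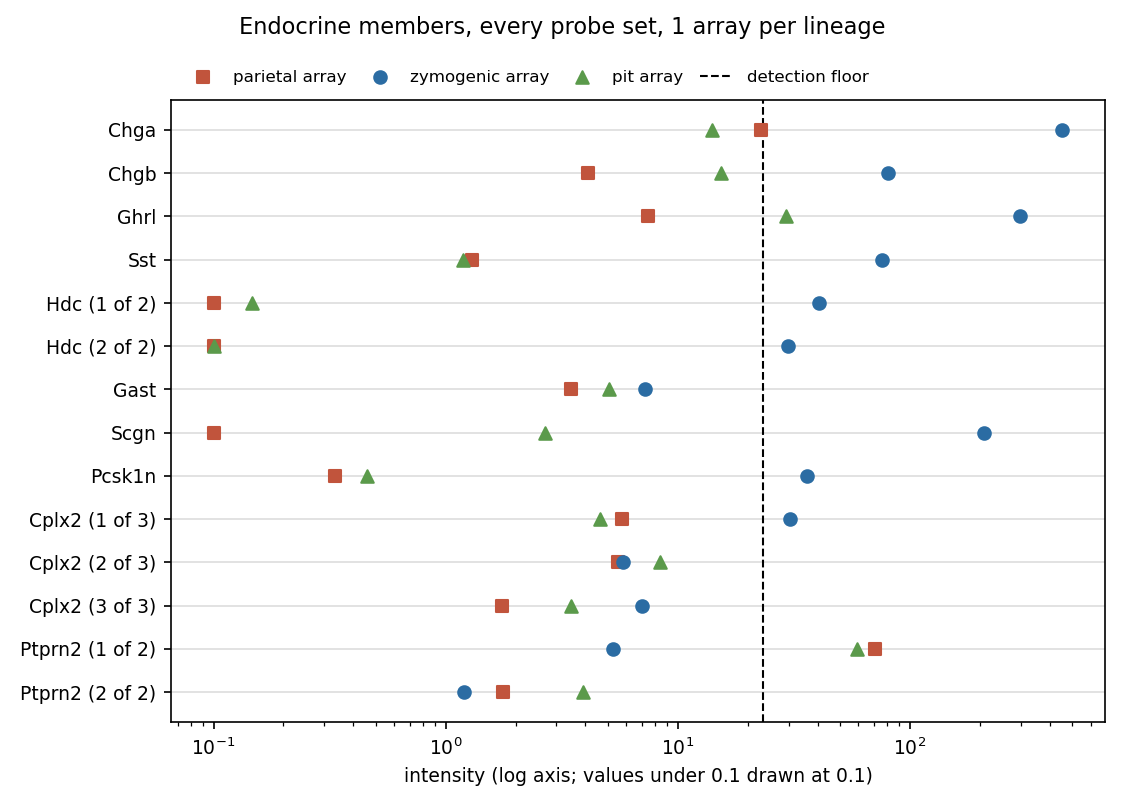
Intensity (log axis) of all 14 probe sets of the 10 genes on the parietal (square), zymogenic (circle) and pit (triangle) arrays, 1 array each, with the detection floor of 23.3 as a dashed line. For 8 genes the zymogenic value of the leading probe set lies to the right of the floor, the Ptprn2 values lie the other way round, and Gast is under the floor on every array.

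Chga, chromogranin A, is the soluble protein that most endocrine granules hold. Its 1 probe set read 453 in zymogenic cells, 22.7 in parietal and 14.1 in pit cells. On the deposited scale only the zymogenic value was above the floor, at least 19.5-fold over both others. The parietal value lay just under the floor. Chgb, chromogranin B, a second granule protein, read 4.10, 80.3 and 15.4 on the parietal, zymogenic and pit arrays. It was also above the floor on the zymogenic array alone, at least 3.45-fold over both others. Pcsk1n, the precursor of an inhibitor of the prohormone convertase PCSK1, read 0.335, 36.2 and 0.459. It passed the floor on the zymogenic array by 1.55-fold, so that a bound of only that size can be given.

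Ghrl encodes ghrelin, the hormone of appetite and growth hormone release, which is made mainly in the stomach. The parietal, zymogenic and pit arrays gave 7.43, 298 and 29.2. The zymogenic value was 10.2-fold over the pit value and at least 12.8-fold over the parietal one. Ghrl was the 1 gene of the 8 that was above the floor on a further array, by a small margin on the pit array. Sst, somatostatin, inhibits acid secretion and the release of gastrin and histamine. It read 1.30, 75.9 and 1.19, and was above the floor on the zymogenic array alone, at least 3.26-fold over both others. Gast, the gastrin of antral G cells, read 3.46, 7.20 and 5.04, under the floor on all 3 arrays, as were 77.3% of all genes. These 3 values have no order. Of the 3 peptide hormones, those of corpus cells were thus measured on the zymogenic array, and the antral one on no array.

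The promoters of the 2 chromogranin genes and of Sst are shown, which are textbook targets of CREB, the factor that binds the cyclic AMP response element. They are also the only 3 of the 10 genes with a match to it below. Whether CREB bears on their values here was not tested. Each sequence is the 250 bases before the RefSeq start of the gene, 5′ to 3′ along the gene, on GRCm38.p6. Capitals mark matches to TGACGTNA.
Chga, chr12:102554691-102554940, forward strand: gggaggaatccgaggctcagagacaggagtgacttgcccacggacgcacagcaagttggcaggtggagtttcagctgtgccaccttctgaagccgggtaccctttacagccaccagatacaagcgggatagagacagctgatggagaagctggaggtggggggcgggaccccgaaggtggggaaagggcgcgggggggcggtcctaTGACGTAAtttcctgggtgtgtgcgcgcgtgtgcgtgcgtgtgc
Chgb, chr2:132781392-132781641, forward strand: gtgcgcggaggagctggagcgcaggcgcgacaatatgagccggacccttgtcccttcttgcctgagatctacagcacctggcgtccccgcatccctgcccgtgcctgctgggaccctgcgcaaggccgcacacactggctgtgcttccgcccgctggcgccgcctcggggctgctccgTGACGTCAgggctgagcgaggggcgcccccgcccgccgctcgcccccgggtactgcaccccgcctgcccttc
Sst, chr16:23890845-23891094, reverse strand: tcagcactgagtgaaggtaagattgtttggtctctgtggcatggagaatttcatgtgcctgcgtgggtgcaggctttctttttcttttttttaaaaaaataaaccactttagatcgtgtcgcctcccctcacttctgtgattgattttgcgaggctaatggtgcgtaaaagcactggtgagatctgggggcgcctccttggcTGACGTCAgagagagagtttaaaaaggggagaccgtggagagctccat
All 10 genes had a promoter in the RefSeq table. The full element TGACGTCA, searched on both strands, lay in the windows of Chgb (72 to 65 bases before the start) and Sst (48 to 41 bases before it). It was found in 1.55% of all 32851 promoter windows of that length. The looser form TGACGTNA, which contains the full element, was also found in Chga (44 to 37 bases before the start, as TGACGTAA) and in 2.52% of all windows. The other 7 genes, among them Ghrl and Scgn, which were also high on the zymogenic array, had neither form in this window. The TATA box TATAAA was found on either strand in Gast alone of the 10 genes, and in 12.4% of all windows. A match is a description of letters and not evidence of binding.

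Hdc, histidine decarboxylase, makes histamine in ECL cells and also in mast cells. Its 2 probe sets, neither of them transcript-specific, had the same pattern. From parietal over zymogenic to pit array the brighter read 0, 40.4 and 0.147, and the other read 0.0287, 29.7 and 0. Both passed the floor on the zymogenic array alone, by 1.74-fold and 1.28-fold.

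Scgn, secretagogin, is a calcium-binding protein of endocrine cells and neurons. Its zymogenic value was 207.5, with 0.0178 for parietal and 2.69 for pit cells. Only the zymogenic value was above the floor, at least 8.92-fold over both others. Cplx2, complexin 2, clamps the membrane fusion machinery until calcium rises. Its brightest probe set read 5.72, 30.5 and 4.60 on the parietal, zymogenic and pit arrays and passed the floor on the zymogenic array by 1.31-fold. The other 2 Cplx2 probe sets did not pass the floor anywhere, so that the Cplx2 signal rests on 1 of 3 probe sets.

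Ptprn2, or phogrin, a phosphatase-like protein of the granule membrane, had the opposite order. Its brighter probe set read 70.5 for parietal and 59.2 for pit cells, and 5.28 for zymogenic cells. The last was under the floor, and the lower of the other arrays was at least 2.54-fold above it. The second Ptprn2 probe set was under the floor on all 3 arrays, at 1.76, 1.20 and 3.90, and shows no order. The Ptprn2 pattern therefore rests on 1 of 2 probe sets.

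How far each zymogenic value stands above unspecific signal differed between the genes. Among the 80 receptor probe sets on the zymogenic array, 0 were brighter than Chga, Ghrl or Scgn. For Chgb and for Sst 1 receptor probe set was brighter, and for Hdc, Pcsk1n and Cplx2 2 were. As a gauge of scatter, probe sets of the same gene were compared in their log2 ratio of 1 array to another, and the pooled SD was 0.50 over 785 cases in which they passed the floor on both arrays. This SD holds scatter between probe sets on the same arrays only. It holds no spread between arrays, cell collections or mice, so it cannot serve as a test of the ratios. Of the 8 genes above the floor on the zymogenic array, 7 passed it there alone, so the SD does not describe their ratios. The log2 ratios of the zymogenic array to the higher of the others were 4.28 for Chga, 3.36 for Ghrl and 3.16 for Scgn. Those of Chgb and Sst were 1.79 and 1.71, and those of Hdc, Pcsk1n and Cplx2 were 0.80, 0.64 and 0.39. Except for Ghrl, each of these ratios is a lower bound on the deposited scale, because both other arrays were under the floor there.

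**Figure D2:**
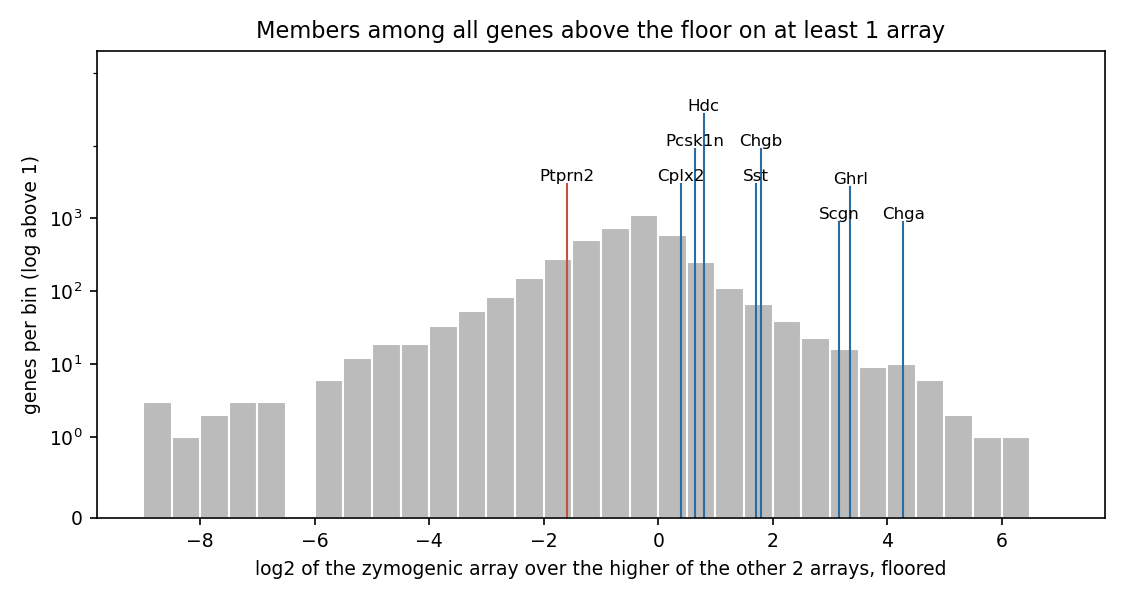
Number of genes (vertical axis, logarithmic above 1) by the log2 ratio of the zymogenic array to the higher of the other 2 arrays, with values under the floor raised to it, for the 4138 genes above the floor on at least 1 array. Lines mark 9 of the 10 genes, from Ptprn2 at -1.60 to Chga at 4.28, and Gast is left out because it is under the floor everywhere.

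Over the 9 genes above the floor on at least 1 array, the median log2 ratio of the zymogenic array to the mean of the others was 1.71, where over the 4138 such genes of the whole array it was -0.17. As 7 of the 9 passed the floor on the zymogenic array alone, their ratios had to lie above 0. For the 1186 genes that passed the floor on every array, the median log2 difference was -0.64 for zymogenic minus parietal and -0.21 for zymogenic minus pit. Quantile normalization moved these shifts to -0.010 and 0.10, and scaling by the control transcripts BioB and BioC to -1.87 and -0.21. Where a gene passed on the zymogenic array alone under a scaling, the floor fixed the sign of its ratio. Under the BioB and BioC scaling Chga passed on the parietal array too, and its ratio was 3.09 (4.80 under quantile normalization). Ghrl (3.92 and 3.36) stayed above 0 and Ptprn2 (-1.19 and -2.65) below it.

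**Figure D3:**
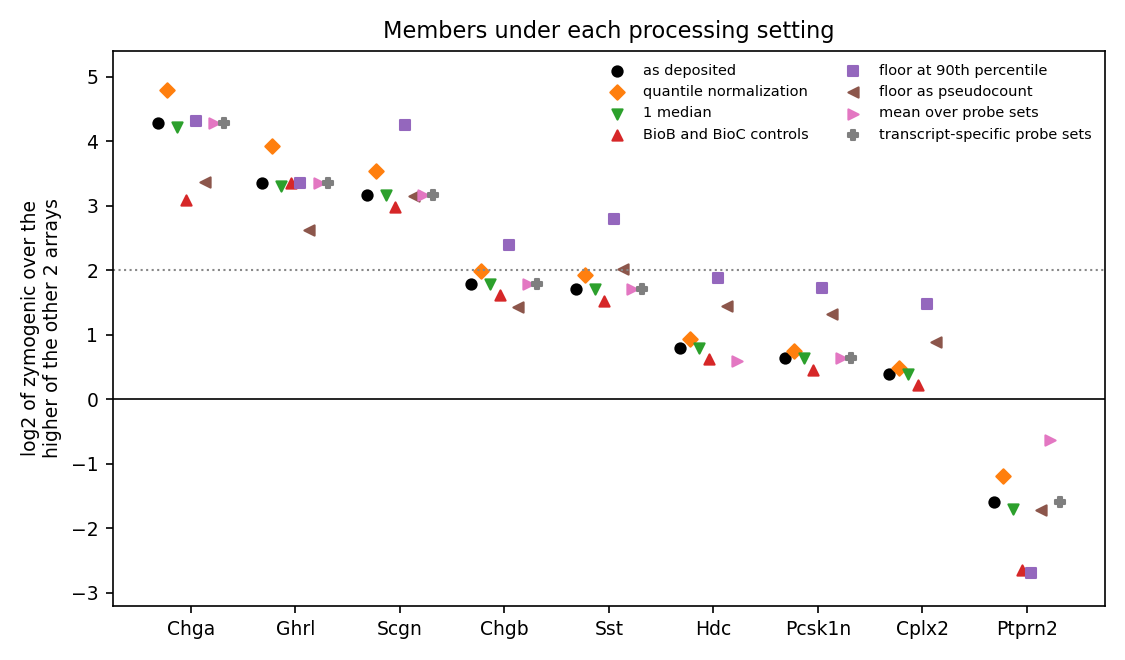
Log2 ratio of the zymogenic array to the higher of the other 2 arrays for 9 genes under the deposited scale (black) and 7 other settings. The dotted line marks 4-fold. Chga, Ghrl and Scgn lie above it in all 8 settings, Chgb and Sst lie around it, and Ptprn2 lies below 0 throughout.

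Other genes of gastric endocrine cells were counted in the same way. Of 66 genes on the array from 5 lists of hormones, granule and processing proteins, release machinery, transcription factors and receptors, 8 passed the floor on at least 1 array, where 22.7% of all genes did. All 8 were above it on the zymogenic array, so that 8 of 66 passed there, where 12.6% of all genes did. At least 2-fold higher there than on both others were 2 of 66, Nucb2 and Syt7 (1.57% of all genes). Of the 66, 0 were at least 2-fold lower there (2.52% of all genes). The median log2 ratio of the zymogenic array to the mean of the others over the 8 genes was 0.33, where over the 4138 genes of the whole array it was -0.17. Nucb2, Gcg, Syt7 and Cckar passed the floor on the zymogenic array alone, so their ratios had to lie above 0. Each of the 5 lists on its own had a smaller share of genes above the floor than the 22.7% of all genes.

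Among hormones and their enzymes, 2 of 12 passed. Nucb2, the precursor of nesfatin, which ghrelin cells contain, read 269 in zymogenic cells, 16.7 in parietal and 8.05 in pit cells, at least 11.6-fold over both others. Gcg, proglucagon, was close to the floor on the zymogenic array, at 24.9 against 0.806 and 9.82. The acylating enzyme of ghrelin, Mboat4, was under the floor on every array (0.875, 5.80 and 8.05), as was Tph1, the enzyme of serotonin synthesis (1.42, 4.11 and 3.09).

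Among granule and processing proteins, 1 of 9 passed. It was Pam, which amidates peptide hormones, at 24.7, 26.5 and 22.4 on the parietal, zymogenic and pit arrays, values that lie together at the floor. The secretogranin Scg2 (1.31, 11.5 and 1.04), the convertase Pcsk1 (8.34, 4.30 and 10.7) and Ptprn, the relative of Ptprn2 (1.91, 1.09 and 0), were under the floor throughout. Several partners of Chga and Chgb in the same granules were therefore not measured above it on any array.

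Among 18 genes of vesicle loading and release, 3 passed. Syt7, a calcium sensor of exocytosis, read 92.3 in zymogenic cells, 14.1 in parietal and 9.34 in pit cells, at least 3.97-fold over both others. A further 2 Syt7 probe sets passed the floor on the zymogenic array alone, at 53.7 and 40.1, so that 3 probe sets of this gene shared the pattern. Rab3a (40.6, 32.4 and 37.2) and Rph3al (31.7, 39.0 and 10.03) did not differ 2-fold from both other arrays on any array. Slc18a2, the transporter that loads histamine into ECL vesicles, was under the floor at 1.62, 4.16 and 1.79.

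Of 13 endocrine transcription factors on the array, 0 passed the floor on any array, and 77.3% of all genes passed on none. The levels of Isl1 on the parietal, zymogenic and pit arrays were 3.97, 19.9 and 0.0819. Those of Neurog3, the factor that starts endocrine differentiation, were 2.71, 15.4 and 5.23. Neurod1 read 5.50, 2.16 and 2.89, and Pdx1 read 5.09, 1.42 and 5.51. Being under the floor, these values have no order. Of 14 receptors, 2 passed. Cckar, the cholecystokinin receptor of chief and D cells, read 2.47, 44.2 and 2.20, at least 1.90-fold over both others on the zymogenic array. Cckbr, the gastrin receptor of ECL and parietal cells, lay at the floor on all 3 arrays, at 22.3, 24.6 and 27.4.

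**Figure D4:**
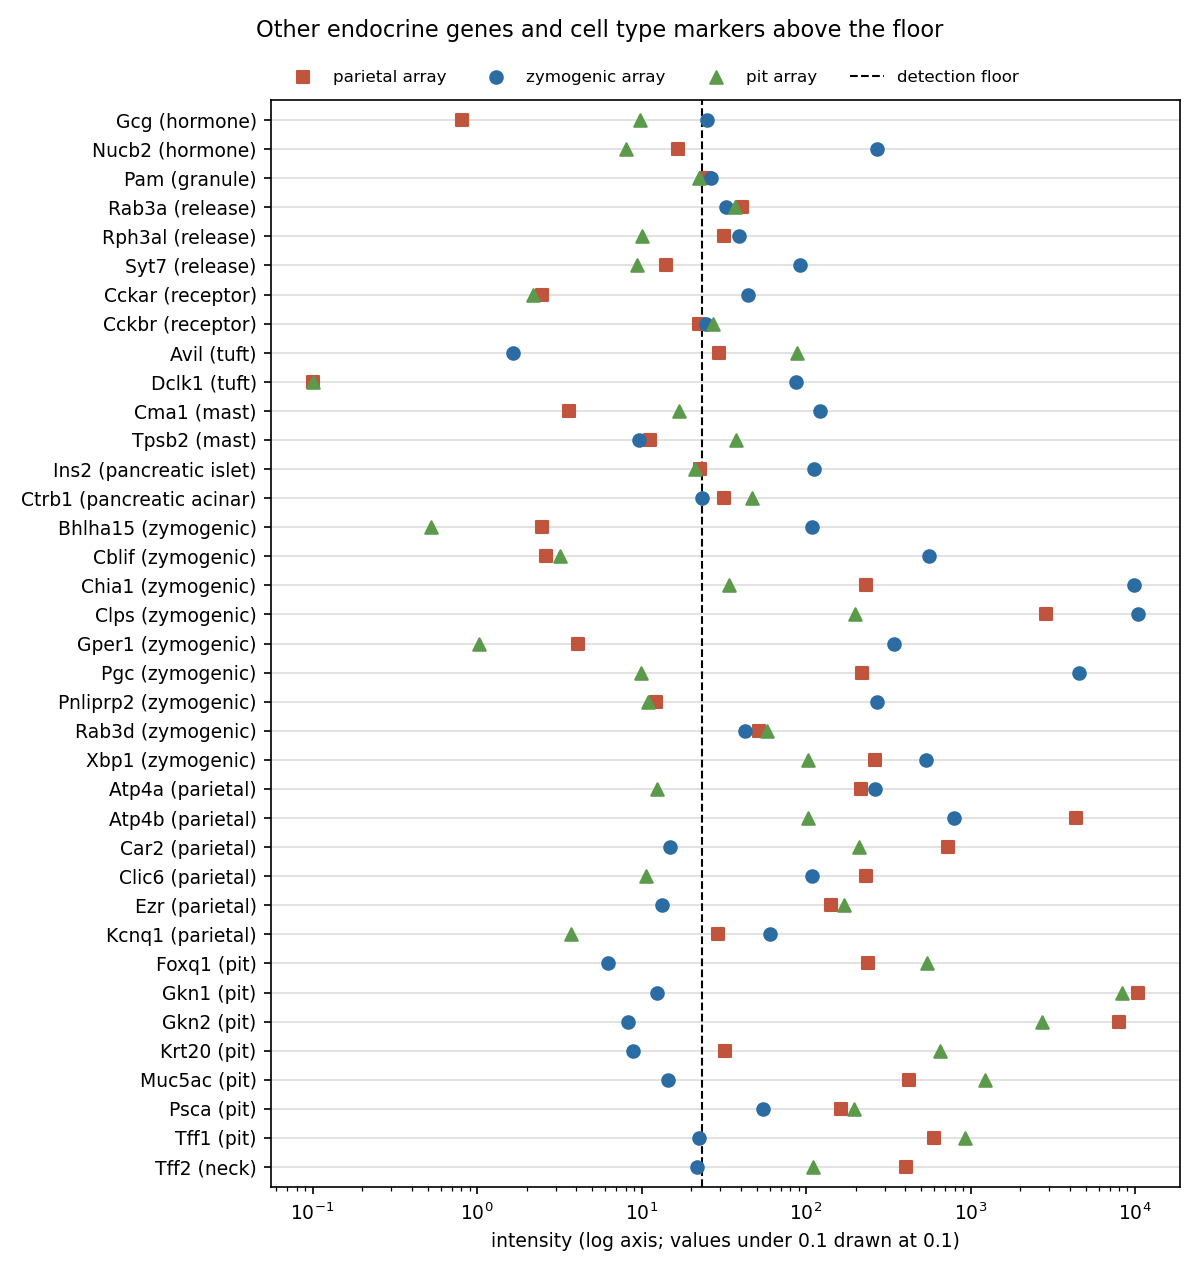
Intensity (log axis) on the 3 arrays of the genes above the floor on at least 1 array from the lists of other endocrine genes and of cell type markers, each gene by its probe set of highest mean. Nucb2, Syt7, Cckar, Dclk1, Cma1 and Ins2 stand to the right of the floor on the zymogenic array alone, and 6 of 7 pit markers are to its left on that array.

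Sorted by endocrine cell type, the zymogenic array held the leading hormone of ghrelin cells and of D cells, and Hdc of ECL cells, each with part of its list. Of 4 ghrelin cell markers, 2 passed there (Ghrl and Nucb2), where 12.6% of all genes did. Of 5 ECL markers, 4 passed (Chga, Hdc, Pcsk1n and, at the floor, Cckbr), and Slc18a2 did not. Of these 4, Chga is held by most endocrine granules and Cckbr read highest on the pit array (27.4). Hdc passed the floor by only 1.74-fold. Of 3 D cell markers, Sst alone passed, and of 4 enterochromaffin markers, Chgb alone, with Tph1, Tac1 and Slc18a1 under the floor. Of the 2 G cell markers on the array, 0 passed on any array, and 77.3% of all genes passed on none. The summed intensity on the parietal, zymogenic and pit arrays was 35.1, 575 and 56.1 for the ghrelin list, 47.0, 558 and 43.8 for the ECL list and 13.8, 84.0 and 12.0 for the D cell list. Chga alone gave 453 of the ECL sum on the zymogenic array. As RNA was pooled from many cells, fewer cells of a type and less RNA per cell cannot be told apart.

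The labelled cell types were checked against their markers. On the zymogenic array 9 of 9 zymogenic markers passed the floor and 8 were at least 2-fold over both others, among them Pgc, pepsinogen C, at 4593, with 217 for parietal and 9.88 for pit cells. That list summed to 26823 there, with 3675 for parietal and 419 for pit cells. Of 7 pit markers, 1 passed the floor on the zymogenic array, with a summed intensity of 128 there, where the parietal array had 19940 and the pit array 14574. Of 9 parietal markers on the array, 4 passed on the zymogenic array, where Atp4b, a subunit of the proton pump, read 793, with 4402 for parietal and 102 for pit cells. Atp4a (214 in parietal, 261 in zymogenic and 12.5 in pit cells) and Kcnq1 (29.1, 60.5 and 3.71) read highest on the zymogenic array. Clic6 read 232, 109 and 10.6. Car2 (731, 15.0 and 210) and Ezr (142, 13.2 and 171) were under the floor on the zymogenic array. The parietal list summed to 5788, 1278 and 525. The zymogenic array thus carried zymogenic and some parietal transcripts beside the endocrine ones, and their part in the endocrine values was not tested. On the parietal array 7 of 7 pit markers were above the floor. Of the 10 members, Ptprn2 alone passed there, close to the share of all genes (15.4%).

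Markers of other cells that can express some of these genes were set beside them. Of 9 mast cell markers, which bear on Hdc, 1 passed on the zymogenic array, where 12.6% of all genes did. It was Cma1, a mast cell chymase, at 121, with 3.61 for parietal and 17.0 for pit cells. The defining mast cell genes Cpa3 (6.82, 1.41 and 0.0191) and Kit (3.70, 3.75 and 3.65) were below the floor throughout, and Tpsb2, a tryptase, passed for pit cells alone (11.2, 9.67 and 37.4). The list summed to 44.8, 160 and 83.9. Of 6 tuft cell markers on the array, 1 passed on the zymogenic array (12.6% of all genes), the kinase Dclk1, at 0.0158, 87.3 and 0.0113. Avil had the opposite order, at 29.7, 1.66 and 88.2. Trpm5 and Pou2f3, which define tuft cells, were under the floor throughout, and the list summed to 55.6, 111 and 115. Of 9 Dclk1 probe sets, 1 passed.

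None of 6 enteric neuron markers and none of 3 enteric glia markers passed on any array, and 77.3% of all genes passed on none. The neuron list summed to 35.0, 32.3 and 61.1 on the parietal, zymogenic and pit arrays, and the glia list to 19.7, 16.1 and 25.0. Of 4 pancreatic islet markers, Ins2, an insulin gene, read 22.6, 111 and 21.1 and Gcg was at the floor, while Iapp and Ppy were under it. The Ins2 probe set is of a kind that the array's naming marks as open to cross-hybridisation, as are the leading ones of Rab3a, Gper1 and Pnliprp2. The islet list summed to 31.8, 145 and 47.3. Of 5 pancreatic acinar markers, Ctrb1 alone passed, at 31.7, 23.4 and 47.1, and the list summed to 68.6, 60.1 and 82.4. The part of these cells in the endocrine values was not tested.

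Genes whose floored log2 values over the 3 arrays were nearest to those of Chga, Ghrl and Scgn were taken by the largest absolute difference on any array. For Chga these were Gm17750 (difference 0.046), Tgfa (0.18), Acad10 (0.19), Cblif, gastric intrinsic factor (0.30), and Zbtb43 (0.33). For Ghrl they were Nxpe2 (0.25), then Gper1, Nucb2, Pnliprp2 and Tmed6 (each 0.33). For Scgn they were Sh3rf1 (0.031), Krtap5-1 (0.050), Synj2 (0.054), Rpgrip1 (0.060) and Ap5s1 (0.091). Cblif, Gper1 and Pnliprp2 are among the zymogenic markers used above, with Cblif at 2.62, 558 and 3.18, Gper1 at 4.13, 345 and 1.03, and Pnliprp2 at 12.3, 269.6 and 10.9. The profiles of the endocrine genes and of these zymogenic markers over the 3 arrays were therefore close. With both other arrays at the floor, such nearness says only that the zymogenic intensities were similar.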

How the data were processed

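RNA of laser-captured cells was measured on 3 arrays, 1 each for parietal, zymogenic and pit cells. The authors deposited linear intensity values, 1 per probe set. Summarisation, background correction, scaling and genome build are not stated there. Samples were grouped by their titles. Of 45101 probe sets, 34958 name 1 gene and were used, and 932 that name several were left out. Symbols were updated through the gene identifier to RefSeq (GRCm38.p6). The probe set with the highest mean stood for its gene. The floor of 23.3 is the largest of the 3 values that the 95th percentile of the receptors took on an array, and lower values were raised to it before log2. It was passed by 2809 genes in parietal, 2285 in zymogenic and 2616 in pit cells. The number of arrays limits the precision. No test was possible.

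Members and lists were chosen with earlier results of these data known. Named were the 10 members with every probe set, list genes at least 2-fold over both other arrays, markers above the floor (in the text or a plot), some list genes under the floor that define a cell type or pathway and were picked after their values were seen, and the 5 nearest profiles of each member past 4-fold. Alternatives were quantile normalization, 1 median, BioB and BioC controls, percentiles of 90 and 99 for the floor, a pseudocount of its size, averages over probe sets, transcript-specific probe sets, and thresholds of 2-fold and 8-fold. Calculations used Python 3.11.15, numpy 2.4.6, pandas 2.3.3 and matplotlib 3.10.9 and were tested on simulated data.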

Additional observations from a re-analysis of the deposited data

How the results depend on the processing

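The number of genes 4-fold over both others on the zymogenic array, 3 on the deposited scale, was 5 under a floor from the 90th percentile (10.9) and 5 with a 2-fold threshold. Under a floor from the 99th percentile (868), above every value of these genes, it was 0, and 0 genes were above the floor on the zymogenic, parietal and pit arrays. The number above the floor on the parietal array, 1 on the deposited scale, was 2 with 1 median, 2 with the BioB and BioC controls and 2 under the lower floor. That on the pit array, 2 on the deposited scale, was 4 under the lower floor. The remaining counts stayed within 1.5 times. The floor of 868 gave no single-gene ratio. Of 60 single-gene log2 ratios under other alternatives, 44 moved by less than the scatter SD of 0.50, 16 moved by more and 0 changed sign. The floor fixed the sign wherever a gene passed it on the zymogenic array alone. Chga ranged from 3.09 to 4.80, Ghrl from 2.62 to 3.92, Scgn from 2.98 to 4.24, Chgb from 1.42 to 2.38, Sst from 1.53 to 2.79, Hdc from 0.59 to 1.88, Pcsk1n from 0.46 to 1.72, Cplx2 from 0.21 to 1.48 and Ptprn2 from -2.69 to -0.64. Hdc had no transcript-specific probe set, and Cplx2 was under the floor both when probe sets were averaged and when transcript-specific ones were used. Signal over background limits Hdc, Pcsk1n and Cplx2, which lay less than 2-fold above the floor.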
